A study of Mus musculus with 12 samples.

Results

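Immediate early genes are transcribed within minutes of a stimulus, without new protein being made, and most of their transcripts are short-lived. They encode transcription factors of the FOS and JUN families, which pair to form the dimer AP-1, zinc finger factors of the EGR family, the orphan nuclear receptor NR4A1, the stress-responsive factor ATF3 and the small nuclear protein IER2. Growth factor signaling through the MAP kinase ERK switches many of them on by way of serum response factor, and cAMP and calcium signaling do so through CREB. In tumors they are read as a sign of recent signaling, and they also respond to handling of tissue. The 10 genes Fos, Fosb, Jun, Junb, Egr1, Egr2, Egr3, Nr4a1, Ier2 and Atf3 were chosen by symbol, and all 10 were found by Ensembl identifier among the 30630 genes listed for each tumor. All 10 also passed the filter for the comparison of groups, which kept 19018 genes.

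RNA was sequenced from subcutaneous flank tumors of CT-26 cells, a murine colon carcinoma cell line, in male BALB/c mice bought at an age of 4 to 6 weeks. The cells were injected in Matrigel, and all tumors, including those of the control group, came from this line. The control group (6 tumors) did not train, and the swimming group (6 tumors) trained by swimming for 3 weeks, with 2 sessions daily of at most 30 min and 6 training days per week. Tumors were taken at random from 10 mice per group, and the time between the last swim and the removal of the tumor is not given in the sources used here. Values are FPKM, a number of fragments divided by gene length and by sequencing depth. The division adjusts for length and depth only, not for differences in RNA makeup between tumors. Summed over all genes, FPKM ran from 380139 to 407109 per tumor.

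The absolute depth is unknown, because FPKM values hold no read numbers. Depth relative to control 1, taken from the steps between values of weakly expressed genes, was lowest in control 2, at 0.694, and no other tumor was under 0.871. Over the genes tested, the correlation between tumors was at least 0.975. Tumors differed in stroma and adjoining tissue. The summed FPKM of 8 skeletal muscle markers ranged from 1.75 to 212 in control tumors and from 1.17 to 305 in swimming tumors, and that of 7 fibroblast markers from 187 to 806 and from 223 to 779. Of the markers of colon epithelium, Krt20 was at 99.8 to 194 FPKM in all tumors, whereas Epcam, Cdx2 and Vil1 stayed below the filter. Krt18 was at 5.89 to 14.8 FPKM, Krt19 at no more than 0.757 and Cdh1 at no more than 0.430. Krt8 was at 129 FPKM in control 4 and at 1.86 to 19.9 in the other tumors.

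The promoters of 4 members are shown because their transcripts behaved differently across the tumors described further on. Nr4a1 had the highest r with the mean of all members, itself included, and Junb came next, while Fos and Egr2 did not follow that mean. The sequences are from RefSeq on GRCm38.p6 and cover the 250 bases before a transcription start. Windows of 7 of the 10 members were used (11 windows). The set used held no window of Egr1, Egr3 or Ier2, so motifs in the promoters of these members were not looked at. Capitals mark matches, on either strand, to a CArG box, which binds serum response factor, to TGACG, the core of the site of CREB and ATF proteins, to GCGNGGGCG, an EGR site, and to the TATA motif TATAAA.
Fos, chr12:85473640-85473889, plus strand, between genes: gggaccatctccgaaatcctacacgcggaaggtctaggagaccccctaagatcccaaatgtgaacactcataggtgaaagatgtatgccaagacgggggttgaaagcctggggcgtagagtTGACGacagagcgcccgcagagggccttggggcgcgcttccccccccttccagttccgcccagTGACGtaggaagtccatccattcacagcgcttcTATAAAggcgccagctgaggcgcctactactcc
Junb, chr8:84978749-84978998, minus strand, between genes: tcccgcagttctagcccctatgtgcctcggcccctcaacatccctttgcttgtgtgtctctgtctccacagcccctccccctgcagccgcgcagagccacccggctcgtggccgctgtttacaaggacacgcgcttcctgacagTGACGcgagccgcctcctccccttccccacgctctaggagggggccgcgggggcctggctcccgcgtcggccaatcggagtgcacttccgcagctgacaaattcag
Nr4a1, chr15:101266596-101266845, plus strand, within an intron of longer Nr4a1 transcripts: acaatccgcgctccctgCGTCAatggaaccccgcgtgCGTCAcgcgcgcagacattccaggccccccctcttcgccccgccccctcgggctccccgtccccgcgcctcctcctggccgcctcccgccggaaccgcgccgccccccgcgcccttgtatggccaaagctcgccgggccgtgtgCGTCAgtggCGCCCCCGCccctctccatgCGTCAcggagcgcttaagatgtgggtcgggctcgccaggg
Egr2, chr10:67537619-67537868, plus strand, within an intron of longer Egr2 transcripts: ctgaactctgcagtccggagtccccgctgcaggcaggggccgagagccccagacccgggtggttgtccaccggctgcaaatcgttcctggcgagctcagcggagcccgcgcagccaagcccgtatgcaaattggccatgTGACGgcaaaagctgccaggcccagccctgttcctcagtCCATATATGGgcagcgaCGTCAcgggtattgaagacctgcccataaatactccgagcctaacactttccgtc
In Nr4a1, 4 copies of TGACG and 1 EGR site were found, and in Fos 2 copies of TGACG and a TATA motif that ended 28 bases before the start. Junb held 1 copy of TGACG. The Egr2 window shown, among several of this gene, held 2 copies and, from 72 to 63 bases before the start, a CArG box. Among the 7 members, TGACG was found in 6, GCGNGGGCG in 2, a CArG box in 1 and TATAAA in 1, and neither TGACGTCA nor the AP-1 site TGANTCA was found in any. Counted by window, TGACG was in 8 of 11, a CArG box in 4, all of them windows of Egr2, GCGNGGGCG in 2 and TATAAA in 1. Of these Egr2 windows, chr10:67537316-67537565 holds a separate CArG box and no TGACG, while the others overlap and share a box and their copies of TGACG. A further Egr2 window, chr10:67535249-67535498, held no match. TGACG lies within TGACGTCA, so these 2 motifs overlap. The TGACG motif was named after the windows were seen, so its counts beside the share of all windows are no test. Of all 32851 promoter windows of the same length, 17.8% held TGACG, 4.7% GCGNGGGCG, 1.47% a CArG box, 12.4% TATAAA, 1.55% TGACGTCA and 6.75% TGANTCA. These matches describe letters in a window and no binding was measured. Only exact matches within the 250 bases were counted, so variants of a motif and sites farther upstream were not found. The Jun window, for example, holds TGACATCA, which differs from TGACGTCA by a letter.

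All 10 members are protein-coding genes, placed here on GRCm38 by the GENCODE M21 annotation. Of the AP-1 genes, Fos lies on chromosome 12 (85473890 to 85477273, plus strand), Fosb on chromosome 7 (19302696 to 19310051, minus strand), Jun on chromosome 4 (95049034 to 95052222, minus strand) and Junb on chromosome 8 (84974484 to 84978718, minus strand). Egr1 lies on chromosome 18 (34859823 to 34864984), Egr2 on chromosome 10 (67535475 to 67542188) and Egr3 on chromosome 14 (70077203 to 70082614), all on the plus strand. Nr4a1 lies on chromosome 15 (101254269 to 101274795, plus strand) and Ier2 on chromosome 8 (84661331 to 84662852, minus strand). Values are for whole genes, so transcripts that start at different promoters are not separated.

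In the tumors the members fell into an abundant set and a scarce set. Junb was at a mean of 84.3 FPKM over the 12 tumors, Egr1 at 80.0, Jun at 70.0 and Ier2 at 47.4, which placed these 4 among the most abundant genes, at percentiles of 94.0 to 96.7 of those tested. Nr4a1 was at 8.94 FPKM. The remaining members were Fos at 4.71, Egr3 at 3.51, Atf3 at 3.31, Egr2 at 2.50 and Fosb at 1.97 FPKM. Neighbours in this order were compared within tumors by two-sided exact sign flips on log2(FPKM + 1) with Benjamini-Hochberg adjustment over 9 pairs. Jun was above Ier2, Ier2 above Nr4a1 and Nr4a1 above Fos in 12 of 12 tumors (adjusted p = 0.00146 for each, exact sign flips). No other pair of neighbours differed past the threshold, with adjusted p from 0.156 to 0.518. The order among Junb, Egr1 and Jun, and that from Fos down to Fosb, was therefore not resolved between neighbours.

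**Figure D1:**
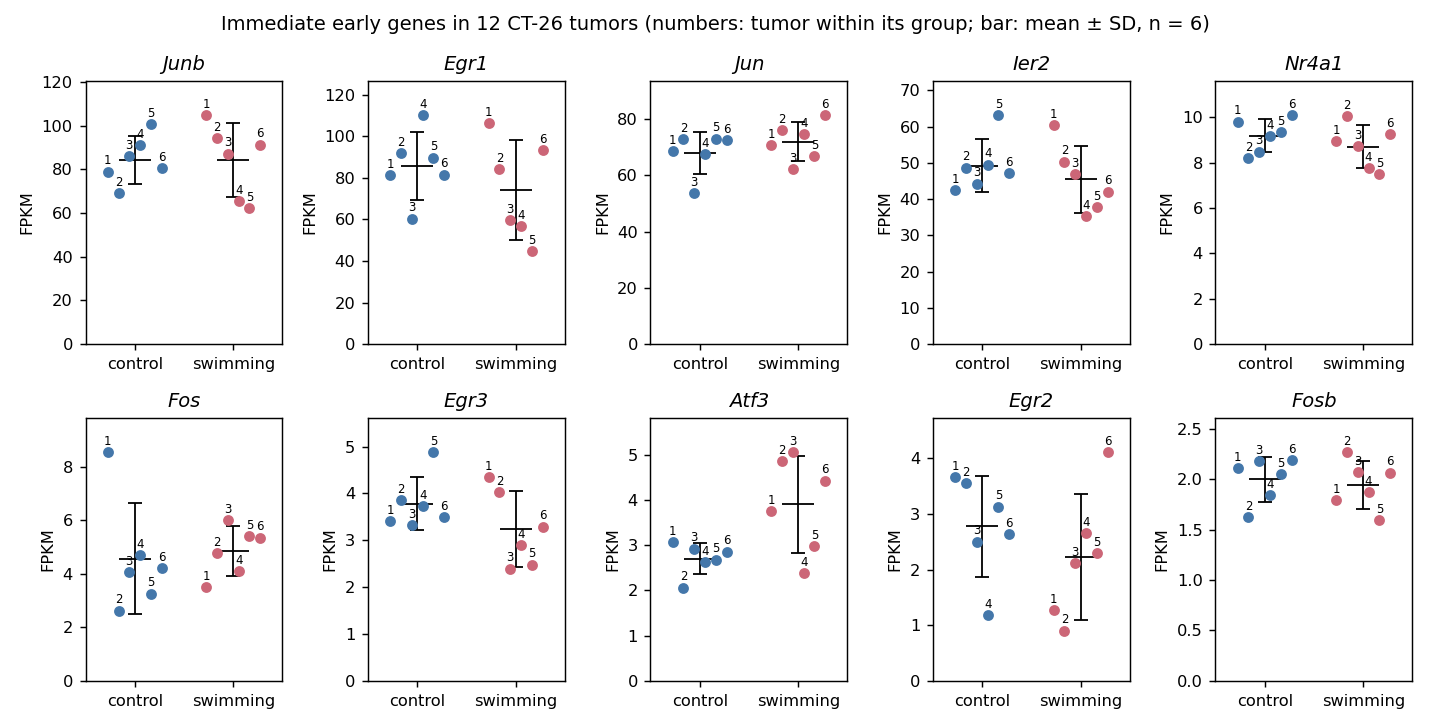
FPKM of each immediate early gene (y axis) in 6 control and 6 swimming tumors (points, numbered within the group), with mean and SD as bars, ordered by mean level. Groups overlap in every panel, and swimming 4 and swimming 5 are the lowest of their group for Junb, Egr1 and Nr4a1.

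Set beside their close relatives, Fos and Fosb were minor members of their family. FOS proteins need a JUN partner to bind DNA, and FOSL1 and FOSL2 are family members that last longer after a stimulus. Fosl1 ranged from 69.6 to 102 FPKM and made up 75.8% to 81.1% of the summed FPKM of Fos, Fosb, Fosl1 and Fosl2, while Fos made up 2.56% to 6.82% and Fosb 1.52% to 2.37%. In the Jun family the shares were closer, with medians of 26.4% for Jun, 31.9% for Junb and 41.2% for Jund, a relative that is expressed without a stimulus. Egr1 held 90.4% to 95.7% of its family, and Egr4 was listed at 0 in 11 tumors. Nr4a1 and Nr4a2 were nearly level, with medians of 49.8% and 47.8%, and Nr4a3 had 1.59%. Shares were compared between the groups by two-sided exact permutation tests over the 924 divisions of the tumors into 6 and 6. No share passed the test (adjusted p = 1 for each of 14 shares, exact permutation test), and the largest difference, swimming minus control, was -2.59 percentage points for Nr4a1.

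**Figure D2:**
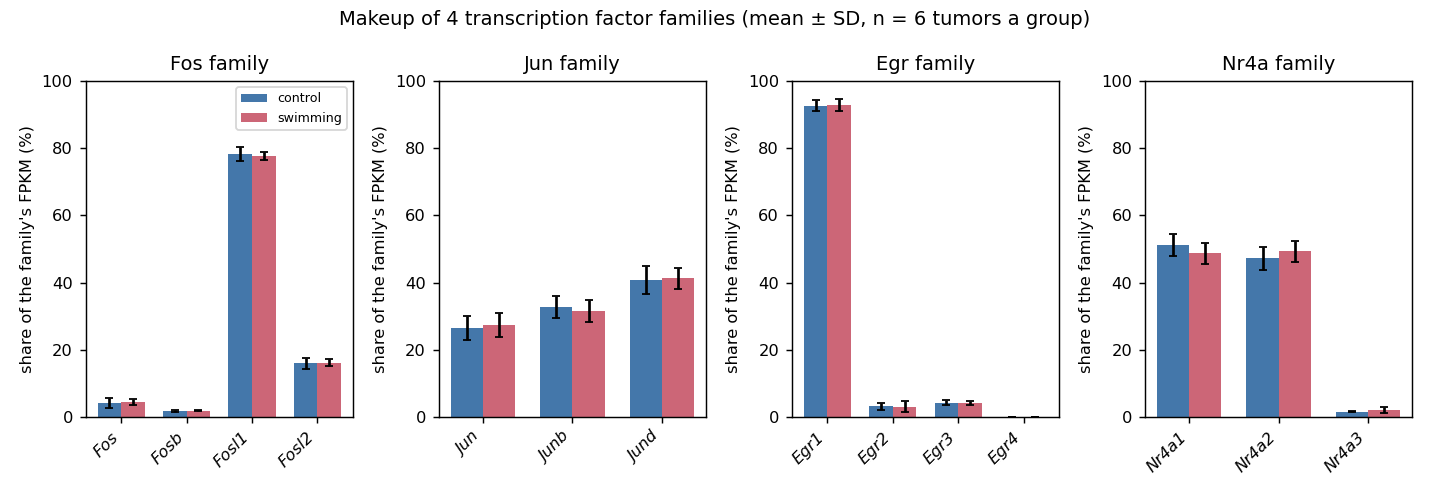
Share of the summed FPKM of each family (y axis, percent) held by its members in control (blue) and swimming (red) tumors, mean with SD over 6 tumors. Fosl1 and Egr1 hold most of their families, and the widest gap between paired bars is that of Nr4a1, -2.59 percentage points.

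To see whether training changed the members, the groups were compared with limma's moderated test on log2(FPKM + 1), fitted over all 19018 genes. Atf3 was higher in swimming tumors at an unadjusted p of 0.0167, and no member passed an adjusted p of 0.05 (limma, Benjamini-Hochberg). Thus 1 of 10 members was called at an unadjusted p below 0.05, against a background of 5.56% of the genes tested (3.11% higher and 2.46% lower in swimming tumors). After adjustment the background was 0%, that is 0 of 19018 genes. No member had values that did not overlap between the groups, which occurred in 0.147% of genes. A fold above 2 with an unadjusted p below 0.05 was found in 0 of 10 members and in 0.105% of genes. The median log2 fold change was -0.05 over the members and 0.00 over all genes tested, with 3 members above 0 and 7 below. In bulk tissue, a change in the number of cells of a type cannot be told apart from a change of RNA per cell.

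Atf3 encodes a factor of the ATF/CREB family that is induced by many kinds of stress. It ranged from 2.07 to 3.07 FPKM with a median of 2.77 in control tumors, and from 2.38 to 5.06 with a median of 4.09 in swimming tumors. Swimming 1, 2, 3 and 6 lay above all control tumors, swimming 5 lay within their range and swimming 4 below the control median. The means were 2.71 ± 0.352 FPKM (SD, n = 6) and 3.91 ± 1.07 FPKM (SD, n = 6), a log2 fold change of 0.38 (standard error 0.14, 95% interval 0.08 to 0.68, adjusted p = 0.889 in limma's test). By a two-sided exact permutation test its p was 0.0346, and 5 of 6 swimming tumors were above the control median. The unadjusted p stayed below 0.05 under all 24 alternatives, between 0.00135 and 0.0416. Atf3 lies on chromosome 1 from 191170296 to 191218039 in GRCm38 (ENSMUSG00000026628). None of the 7 marker lists of other cell types was related to Atf3 across tumors at an unadjusted permutation p below 0.05, and for the T and NK cell markers r was 0.32 (rho = 0.43, permutation p = 0.303 and 0.169). Of those 6 T and NK cell markers, Cd3g and Cd8a were higher in swimming tumors at an unadjusted p below 0.05. Among all genes tested 3.11% were higher at that threshold, and none of the 6 markers passed adjustment. The summed FPKM over the list was 5.50 to 12.8 in control tumors and 7.03 to 21.0 in swimming tumors.

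The EGR genes had lower means in swimming tumors, and none of them passed the test. Egr1, the most abundant of them, ranged from 60.3 to 110 FPKM with a median of 85.6 in control tumors and from 44.9 to 106 with a median of 72.0 in swimming tumors. Swimming 5 and swimming 4 were the lowest of all tumors, while swimming 1 was second to control 4. The means were 85.8 ± 16.3 and 74.3 ± 24.0 FPKM (SD, n = 6 each), a log2 fold change of -0.25 (95% interval -0.68 to 0.19, exact permutation p = 0.31). Leaving out swimming 5 gave -0.12 and leaving out swimming 1 gave -0.36, the extremes for single tumors. For Egr2, known for its part in myelination and in T cell tolerance, the range was 1.18 to 3.66 FPKM (median 2.89) in control tumors and 0.905 to 4.11 (median 2.21) in swimming tumors. It varied 4.55-fold between tumors, the most of all members, and its log2 fold change was -0.26 (95% interval -0.77 to 0.25, exact permutation p = 0.338). That value was -0.12 without swimming 2 and -0.41 without either control 4 or swimming 6. Egr3, itself a target of EGR1, ranged from 3.33 to 4.88 FPKM (median 3.61) and from 2.40 to 4.36 (median 3.10). Its log2 fold change was -0.19 (95% interval -0.45 to 0.08, exact permutation p = 0.177), and with 1 tumor left out it lay between -0.26 without swimming 1 and -0.13, with unadjusted p from 0.0448 to 0.318 in limma's test. These intervals include both no difference and reductions of more than 0.4 on the log2 scale.

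Among the AP-1 genes the differences were small or wide in their error. Fos ranged from 2.62 to 8.55 FPKM (median 4.14) in control tumors and from 3.51 to 6.0 (median 5.06) in swimming tumors. Its highest and lowest values both belonged to control tumors, control 1 and control 2. The log2 fold change of Fos was 0.13 (95% interval -0.29 to 0.55, exact permutation p = 0.576), and with 1 tumor left out it lay between 0.02 without control 2 and 0.30 without control 1 (unadjusted p = 0.922 and 0.0521 in limma's test). Fosb ranged from 1.63 to 2.19 FPKM (median 2.08) and from 1.59 to 2.27 (median 1.97), and only swimming 2 was above all control tumors. The log2 fold change of Fosb was -0.03 (95% interval -0.19 to 0.14, exact permutation p = 0.675). Jun, the founding partner of FOS in AP-1, ranged from 53.6 to 73.1 FPKM (median 70.5) and from 62.2 to 81.4 (median 72.7). Its log2 fold change was 0.08 (95% interval -0.10 to 0.26, exact permutation p = 0.413), and swimming 2, 4 and 6 were above all control tumors. Without control 3, the lowest tumor for Jun, it was 0.02 (unadjusted p = 0.808 in limma's test). Junb ranged from 68.9 to 101 FPKM (median 83.3) and from 62.2 to 105 (median 89.2). The swimming group thus held both the highest value, in swimming 1, and the 2 lowest, in swimming 4 and 5, and the log2 fold change was -0.02 (95% interval -0.30 to 0.26, exact permutation p = 0.903). Exons of Jun overlap those of the antisense gene Junos, and exons of Junb overlap those of Prdx2 on the other strand, and reads of such partners cannot be told apart without strand information.

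Nr4a1, a nuclear receptor without a known ligand that is induced by antigen receptors and growth factors, ranged from 8.19 to 10.1 FPKM (median 9.26) in control tumors and from 7.50 to 10.1 (median 8.83) in swimming tumors. The ratio of its highest to its lowest tumor, 1.34, was the smallest among the members, and its log2 fold change was -0.07 (95% interval -0.23 to 0.09, exact permutation p = 0.333). Swimming 4 and swimming 5 were again the lowest of all tumors. Ier2 ranged from 42.6 to 63.1 FPKM (median 48.0) and from 35.3 to 60.5 (median 44.5), with the same 2 tumors lowest. The log2 fold change of Ier2 was -0.12 (95% interval -0.40 to 0.15, exact permutation p = 0.398). It was -0.05 without control 5, -0.06 without swimming 4, -0.08 without swimming 5 and -0.21 without swimming 1. For Nr4a1 the corresponding extremes were -0.03 without swimming 5 and -0.11 without swimming 2.

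**Figure D3:**
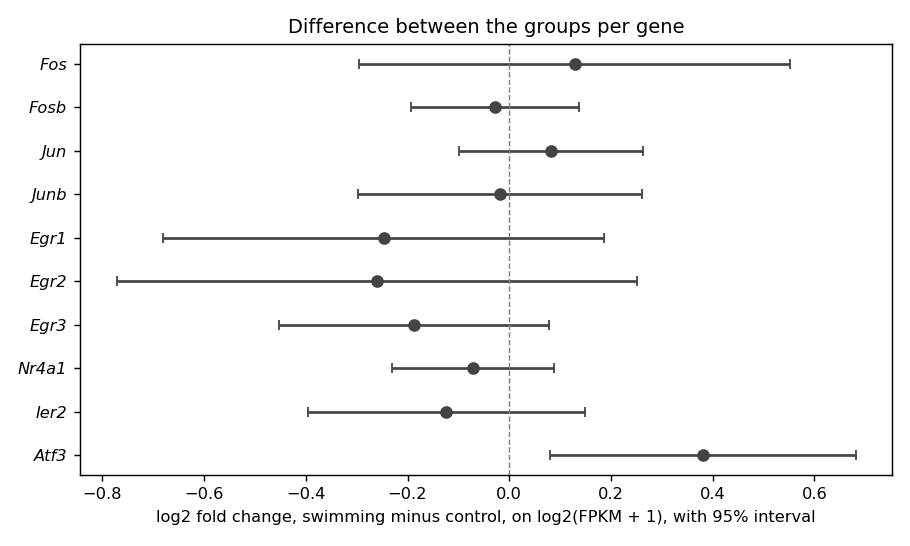
Log2 fold change of each member, swimming minus control, on log2(FPKM + 1) (x axis), with its 95% interval from limma's moderated test over 12 tumors. Only the interval of Atf3, 0.08 to 0.68, leaves out 0.

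Across tumors, irrespective of the group, several members varied together. Of the 45 pairs of members, 31 had a positive Pearson r over the 12 tumors, the median r was 0.14, and 9 had an unadjusted permutation p below 0.05. All 9 lay among Egr1, Egr3, Ier2, Junb, Nr4a1 and Fosb. After adjustment over the 45 pairs, 3 remained. Egr3 and Ier2 had r = 0.80 (permutation p = 0.00207, adjusted p = 0.0325) and rho = 0.87 (permutation p = 0.00043, adjusted p = 0.0193). The r was 0.92 when control 5 and swimming 3, the tumors farthest from the median of Egr3, were left out, and within controls and within swimming tumors it was 0.97 and 0.71. Junb and Ier2 had r = 0.79 (permutation p = 0.00217, adjusted p = 0.0325) and rho = 0.75 (permutation p = 0.00688, adjusted p = 0.155). For Egr1 and Egr3, r was 0.79 (permutation p = 0.00197, adjusted p = 0.0325) and rho was 0.70 (permutation p = 0.0143, adjusted p = 0.162). When swimming 4 and swimming 5 were left out, r was 0.60 for Junb and Ier2 and 0.67 for Egr1 and Egr3. Within controls and within swimming tumors it was 0.62 and 0.90 for the former pair, and 0.44 and 0.87 for the latter. All genes of a tumor share a library, so values of different genes are not independent measurements.

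Swimming 4 and swimming 5 were the tumors in which most members were low. They held the 2 lowest values of the 12 tumors for Junb, Egr1, Nr4a1 and Ier2, and swimming 5 was also lowest for Fosb. Swimming 5 was not low for Fos, where its rank was 3. Swimming 5 also had the highest skeletal muscle, macrophage and T and NK cell markers of all tumors, with mean log2(FPKM + 1) over each list of 4.97, 6.59 and 1.90, and its fibroblast markers, at 5.73, were level with those of control 1. In swimming 4 the same lists were at 2.93, 6.19, 1.47 and 4.68, within the range of the other tumors. The part of these markers in the low values was not tested. Fos had negative r with Egr3 (-0.53) and Ier2 (-0.45), with unadjusted permutation p of 0.0781 and 0.139. By rho, Fos had -0.62 with Egr3 and 0.63 with Atf3 (permutation p = 0.0358 and 0.0322, adjusted p = 0.182 for each). By r, Fos, Jun, Egr2 and Atf3 had no pair with a permutation p below 0.05.

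**Figure D4:**
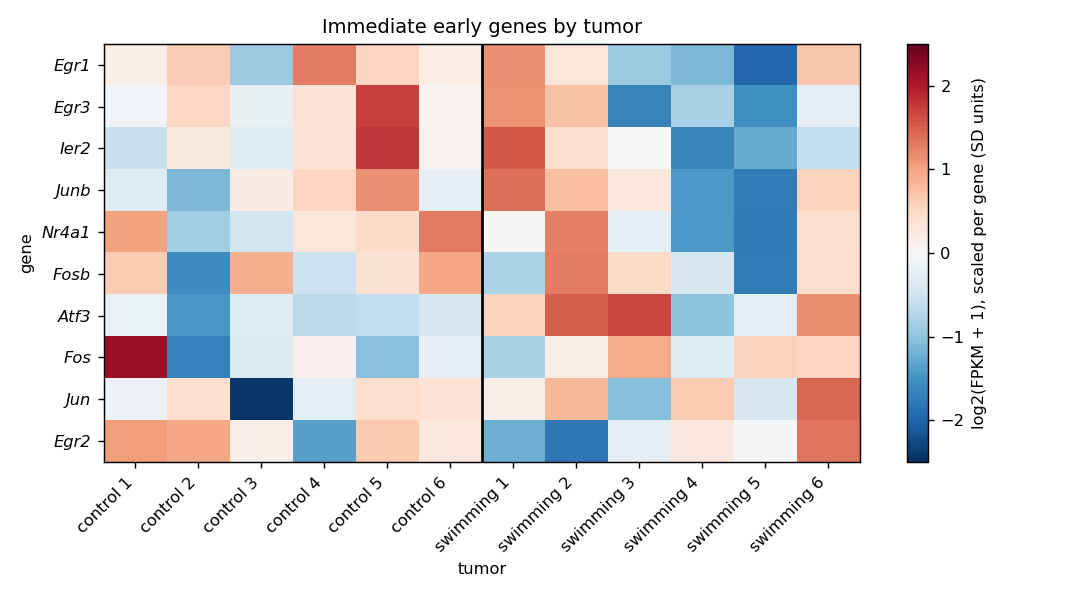
Members (rows) by tumor (columns), coloured by log2(FPKM + 1) scaled per gene to a mean of 0 and an SD of 1, with control tumors left of the line. The upper 5 genes, from Egr1 to Nr4a1, are all below their mean in swimming 4 and swimming 5, and Fos is highest in control 1.

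**Figure D5:**
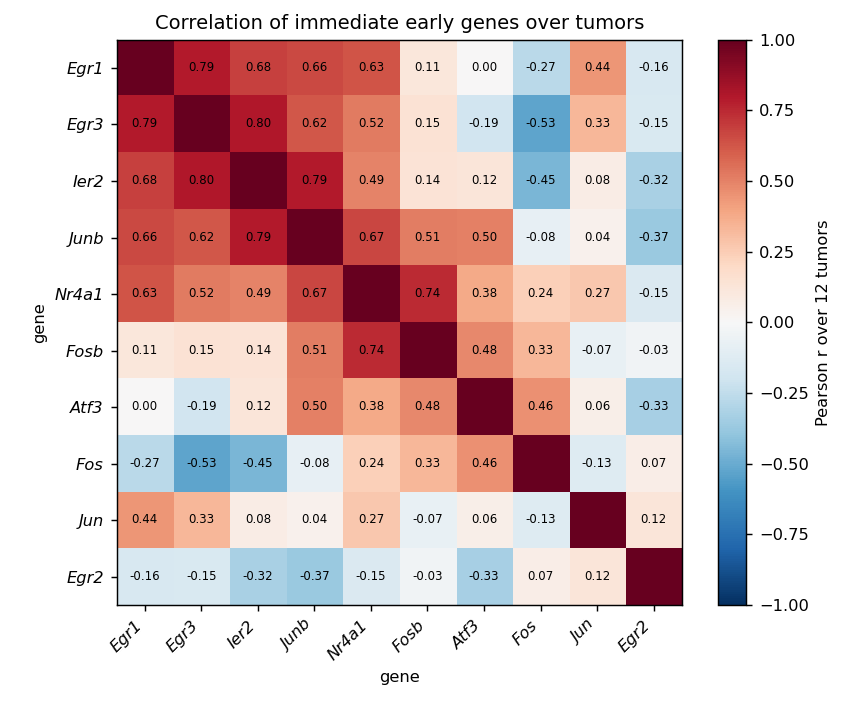
Pearson r between members over 12 tumors (colour and printed value, rows and columns in the same order). Values reach 0.80 in the upper left block from Egr1 to Nr4a1 and fall to -0.53 between Fos and Egr3.

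Markers of stroma and of lymphocytes moved in part against these genes. Across 70 relations of 10 members with 7 marker lists, 10 had an unadjusted permutation p below 0.05 and none passed adjustment (smallest adjusted p = 0.123). Junb had r = -0.73 with the fibroblast markers (rho = -0.76, permutation p = 0.00701 and 0.00551, adjusted p = 0.123 and 0.386), and r was -0.70 without control 1 and swimming 5, -0.78 within control tumors and -0.75 within swimming tumors. Ier2 had r = -0.78 with the T and NK cell markers (rho = -0.70, permutation p = 0.00303 and 0.0148, adjusted p = 0.123 and 0.402), and r was -0.63 without control 5 and swimming 5, -0.87 within control tumors and -0.78 within swimming tumors. The T and NK cell markers also ran against Egr3 (r = -0.75, permutation p = 0.00548; rho = -0.67, permutation p = 0.021; adjusted p = 0.123 and 0.402), with r of -0.51 without control 5 and swimming 5, -0.76 within control tumors and -0.66 within swimming tumors. The skeletal muscle markers ran against Egr3 (r = -0.68, permutation p = 0.0137; rho = -0.52, permutation p = 0.0880; adjusted p = 0.159 and 0.560) and Junb (r = -0.58, permutation p = 0.0465; rho = -0.64, permutation p = 0.0268; adjusted p = 0.340 and 0.402). When swimming 3 and swimming 5 were left out, these r were -0.36 and -0.54, and they were -0.52 and -0.49 within control tumors and -0.77 and -0.64 within swimming tumors. Fos went the other way with the adipocyte markers (r = 0.75, permutation p = 0.00623; rho = 0.59, permutation p = 0.045; adjusted p = 0.123 and 0.404), and this rested on control 1 and swimming 5, without which r was 0.33. In control 1, where Fos was highest, the adipocyte gene Adipoq was at 12.6 FPKM, against at most 3.69 in any other tumor. Within controls and within swimming tumors that r was 0.82 and 0.57. The rest of the 10 relations were negative. Egr1 had r = -0.69 with the T and NK cell markers (rho = -0.48, permutation p = 0.0136 and 0.123). Fosb had r = -0.60 with the macrophage markers (rho = -0.59, permutation p = 0.0368 and 0.0493). With the fibroblast markers r was -0.65 for Egr3 and -0.58 for Ier2 (permutation p = 0.0228 and 0.0486). Fos and the T and NK cell markers had r = 0.51 (rho = 0.62, permutation p = 0.0910 and 0.0344). The part of these cell types in the levels of the members was not tested.

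The genes most like the members were sought among 12790 other genes with a mean of at least 1 FPKM, by Pearson r over the 12 tumors with the mean of the 10 scaled members. They were the AP-1 gene Fosl2 (r = 0.92, rho = 0.89), Cdkn1a, which encodes the cell cycle inhibitor p21 (r = 0.91, rho = 0.83), BC024978 (r = 0.90, rho = 0.79), the DNA repair gene Ercc1 (r = 0.90, rho = 0.87) and the cytokine gene Il11 (r = 0.89, rho = 0.89). These values describe the closest of many genes and carry no test. The r of single members with that mean was 0.91 for Nr4a1, 0.82 for Junb and 0.74 for Egr1, but 0.12 for Fos and -0.06 for Egr2. Each member is itself part of that mean, which raises these r.

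Genes around the members in the pathway were taken from 6 lists of 85 genes, of which 84 were tested, all but Egr4. At an unadjusted p below 0.05, 6 were higher and 8 lower in swimming tumors, or 16.7% against the background of 5.56%, and none passed adjustment (adjusted p = 0.889 in limma's test for each of the 14). The lists were chosen with earlier results of these data known, so this share and the counts per list are no test of the lists. Hspa1a and Hspa1b, which count as 2 of the 14, are near-identical copies. Over all 84 genes the median log2 fold change was 0.00, with 42 genes on either side of 0.

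Feedback inhibitors held the most of these genes, 6 of 20, with 3 in each direction and a median log2 fold change of -0.08 over the list. Dusp6, a phosphatase that removes the activating phosphates of ERK, was 77.8 ± 5.63 FPKM in control tumors and 69.9 ± 5.30 in swimming tumors (SD, n = 6 each), a log2 fold change of -0.15. Dusp5, its counterpart in the nucleus, was 29.7 ± 6.88 and 21.7 ± 5.26 FPKM, a log2 fold change of -0.44 (exact permutation p = 0.0606). All 6 swimming tumors were below the control median for Dusp5, and its values followed the pattern of low swimming 4 and swimming 5, at 16.6 and 14.3 FPKM. Zfp36l2, a gene of the ZFP36 family of proteins that destabilize AU-rich transcripts, was 141 ± 26.7 and 117 ± 8.67 FPKM, a log2 fold change of -0.25. Its relative Zfp36l1 went the opposite way, from 29.2 ± 2.38 to 33.7 ± 1.57 FPKM (log2 fold change 0.20, exact permutation p = 0.00433), with 6 of 6 swimming tumors above the control median. Spred2, an inhibitor of RAS and RAF signaling, was 15.3 ± 1.46 and 17.5 ± 0.668 FPKM (log2 fold change 0.19), and Nab1, a corepressor of EGR proteins, was 25.1 ± 1.17 and 27.8 ± 2.34 FPKM (log2 fold change 0.14). Ppp1r15a, with one of the largest differences of the list, had a log2 fold change of -0.37 (unadjusted p = 0.215 in limma's test). That of Ppp1r15a was -0.18 without swimming 5 and -0.24 without swimming 4. Without swimming 1 it was -0.58, with an unadjusted p of 0.0257 in limma's test. Zfp36l1 and Spred2 kept an unadjusted p below 0.05 under all 24 alternatives, whereas Dusp5, Dusp6, Zfp36l2 and Nab1 lost it in 7 to 10 of them.

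Among early-response effectors, 11 of 12 genes had a negative log2 fold change, with a median of -0.27 over the list, and 2 passed the unadjusted threshold. Over all 19018 genes, 9186 were negative and the median was 0.00. The mean log2(FPKM + 1) of the list was lowest in swimming 4 and swimming 5, at 3.93 and 3.99, and 4.25 to 4.66 in the other swimming tumors and 4.34 to 4.83 in control tumors. Ccn2, a matricellular protein induced by mechanical stress and TGF-beta, ranged from 10.1 to 60.9 FPKM in control tumors and from 9.43 to 17.0 in swimming tumors, a log2 fold change of -0.92 (95% interval -1.67 to -0.17). Sgk1, a kinase induced by serum and glucocorticoids, ranged from 12.1 to 35.2 FPKM and from 10.8 to 13.3, a log2 fold change of -0.64 (95% interval -1.14 to -0.15, exact permutation p = 0.00433). For both genes the highest values were those of control 1 and control 2, and all 6 swimming tumors were below the control median. Control 2 has the lowest relative depth, and control 1 has the highest fibroblast and adipocyte markers, whose part in these values was not tested. Leaving out any 1 tumor kept both genes below an unadjusted p of 0.05.

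Other early-response transcription factors had 1 gene in each direction among 14 tested. Myc was 33.7 ± 5.82 and 26.1 ± 3.82 FPKM (log2 fold change -0.35, unadjusted p = 0.0104), with 6 of 6 swimming tumors below the control median, and the p was 0.0538 without control 1 and swimming 5. Klf10, a TGF-beta-inducible factor, was 18.9 ± 2.18 and 22.6 ± 2.98 FPKM (log2 fold change 0.24, unadjusted p = 0.0241). The unadjusted p of Klf10 was 0.0551, 0.0585 and 0.0588 without control 1, control 2 and swimming 2. Cebpd had a log2 fold change of -0.32 (unadjusted p = 0.252 in limma's test), and this was -0.19, -0.16 and -0.21 without control 1, control 2 and swimming 4. Of 8 AP-1 relatives, Jdp2, which encodes a repressor that dimerizes with JUN, was 21.9 ± 1.55 and 19.3 ± 1.94 FPKM (log2 fold change -0.18, unadjusted p = 0.0228), and the p was 0.0535, 0.0563 and 0.0545 without control 1, swimming 2 and swimming 4. Batf3 had the largest difference of that list, 0.19, with an unadjusted p of 0.0849, and this was 0.00204 without control 1.

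Upstream kinases and activators had 1 of 23 genes past the unadjusted threshold, or 4.35%. Atf1, a partner of CREB, was 39.2 ± 1.90 and 34.6 ± 2.52 FPKM (log2 fold change -0.18, unadjusted p = 0.00523). Mapk14 and Creb1 had the largest differences of the list, -0.46 and 0.26, with unadjusted p of 0.0934 and 0.228 in limma's test. Without swimming 2 the p of Mapk14 was 0.00633, and without control 6 it was 0.0307. Without control 2 the difference of Creb1 was 0.11 (unadjusted p = 0.538 in limma's test).

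Heat shock genes were included because they answer many of the same stresses as Atf3. Of 7, Hspa1a and Hspa1b were higher in swimming tumors at an unadjusted p below 0.05, with log2 fold changes of 0.67 and 0.76. Among all genes tested 3.11% were higher at that threshold, and no heat shock gene passed adjustment. Hspa1a and Hspa1b are near-identical copies that can share reads. Hspa1b ranged from 9.80 to 26.1 FPKM in control tumors and from 10.8 to 39.9 in swimming tumors. Swimming 1, 2, 3 and 6, which had the highest Atf3 of their group, also had its highest Hspa1b. Control tumors did not show this order. Control 6 had their highest Hspa1b, 26.1 FPKM, with Atf3 at 2.86 FPKM. Control 1 had their highest Atf3, 3.07 FPKM, with Hspa1b at 12.1 FPKM. The relation between the 2 genes was not tested. Hspa1a and Hspa1b lost an unadjusted p below 0.05 without control 2, control 4, swimming 1, swimming 2 or swimming 6, with p between 0.0531 and 0.074.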

How the data were processed

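RNA from 12 tumors was rRNA-depleted and sequenced. According to the methods and the submitters' processing notes, reads were trimmed, mapped with HISAT2 2.0.5 and quantified with StringTie 1.3.3. The methods name hg38, the notes name hg38 and GRCm38, and the files list mouse Ensembl identifiers. The authors deposited 1 FPKM value per gene and tumor, normalized for gene length and depth, and read numbers were not analysed here. Symbols and coordinates are from GENCODE M21 (GRCm38), matched by identifier, and promoters are from RefSeq (GRCm38.p6).

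Groups were taken from the sample labels. Genes were kept where 6 or more tumors reached 0.1 FPKM, and compared on log2(FPKM + 1) with lmFit and eBayes with a trend in limma 3.58.1 (R 4.3.3), with 2 groups and no covariate, and Benjamini-Hochberg adjustment over all genes tested. The pseudocount of 1 understates changes of weakly expressed genes. The fit was tested on simulated data. Single values were compared by two-sided exact permutation over 924 divisions (smallest p 0.00216), levels by 4096 sign flips (smallest p 0.000488) and correlations by 100000 permutations, in Python 3.11.15 with scipy 1.17.1. The p-values measure the spread between tumors of different mice.

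The members and gene lists were chosen with earlier results of these data known. Named genes are the 10 members, list genes with an unadjusted p below 0.05 or among the 2 largest log2 fold changes of a list, and the 5 genes most like the mean of the members. Marker genes were named after their values were seen, as was the TGACG motif. Alternatives were pseudocounts of 0.1 and 0.01, no filter, a filter of 1 FPKM, quantile and trimmed mean scaling, sample weights, no trend, a block on the replicate number, muscle and fibroblast markers as covariates, and leaving out each tumor. Leaving out control 1 and swimming 5 together was added after the data were seen. The replicate numbers do not mark a shared animal.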

Additional observations from a re-analysis of the deposited data

Results flagged for a closer look

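Dixon's ratio was computed for 58 sets of 6 tumors, a set being 1 group for 1 member or named pathway gene. In 8 of them the highest or lowest tumor stood apart from the rest, where chance gives about 2.9, or 1 in 20.

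Among the members, Fos was at 8.55 FPKM in control 1, with the other control tumors at 2.62 to 4.69. Jun was at 53.6 FPKM in control 3, with the others at 67.7 to 73.1. In control 5, Egr3 was at 4.88 FPKM and Ier2 at 63.1, while the other control tumors were at 3.33 to 3.86 and at 42.6 to 49.6.

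Among the pathway genes, Batf3 was at 0.967 FPKM in control 1 (others 0.269 to 0.452), Hspa1b at 26.1 FPKM in control 6 (others 9.80 to 14.9), Sgk1 at 13.3 FPKM in swimming 1 (others 10.8 to 11.4) and Mapk14 at 26.0 FPKM in swimming 2 (others 9.63 to 12.6). No explanation was tested for these values.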

How the results depend on the processing

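Of 240 values of single members under alternatives, 229 kept their direction and their side of an unadjusted p of 0.05, 10 reversed and 1 passed the threshold where it had not before, that of Egr3 without swimming 1. The reversals were all of log2 fold changes near 0. Junb was at 0.0178 with sample weights, 0.0253 with the muscle covariate, 0.00186 with the fibroblast covariate and 0.0459 without control 1 and swimming 5 together (chosen after seeing the data), where Fosb was at 0.0184. Leaving out 1 tumor gave -0.0854 to 0.0628 for Junb and -0.0666 to 0.0071 for Fosb, with the positive values of Junb without control 4, control 5, swimming 4 or swimming 5, and that of Fosb without swimming 5. The cause was not tested. Scaling moved the median of all genes by at most 0.01 on the log2 scale.

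When 1 tumor was left out, 1 to 2 members were past the unadjusted threshold, 2 only without swimming 1. The pathway lists held 9 to 18 genes past it, with the lowest count without control 2, and 0 to 3 of all genes passed an adjusted p of 0.05, 3 without control 4 and 2 without swimming 1. With sample weights 1 gene passed it. The median log2 fold change of the members was -0.05 in the main fit. With 1 tumor left out it ran from -0.0870 to -0.0137. Under the other alternatives it ran from -0.0617 to 0.000847, and it was above 0 only without control 1 and swimming 5 together. With the replicate number as a block, 1 member, Atf3, was past the unadjusted threshold, and the pathway lists held 17 such genes. Creb1 and Mapk14 passed it under the block, and Klf10, Dusp5 and Zfp36l2 did not. The deviations of same-numbered tumors had a mean correlation of -0.12, against 0.02 for other numbers. Of the 12 tumors, 0 correlated best with their own number. The labels do not say whether same-numbered tumors shared a day or a batch.

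Depth limits the scarce members most, and without read numbers their counting error cannot be given.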
